A study of Mus musculus with 6 samples.

Results

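The receptors described here share a job in B cells, which is to restrain the signal of the antigen receptor. Each is a surface protein, most of them with an immunoreceptor tyrosine-based inhibitory motif (ITIM) in the cytoplasmic tail. When the antigen receptor is engaged, the Src-family kinase Lyn phosphorylates these motifs, and the phosphorylated tail recruits a phosphatase. CD22, CD72, Siglec-G, LAIR-1, PIR-B, CEACAM1 and BTLA can all recruit SHP-1, encoded by Ptpn6. FcγRIIb, encoded by Fcgr2b, instead recruits mainly the lipid phosphatase SHIP-1, encoded by Inpp5d. The set comprised 9 receptor genes (Cd22, Fcgr2b, Cd72, Siglecg, Lair1, Pirb, Cd5, Ceacam1 and Btla) and Ptpn6, chosen by name for this function. The choice was made with earlier results of these data known. All 10 genes were among the 23420 rows of the count table. Of these, 9 were found by symbol, and Pirb was found under its synonym Lilrb3. All 10 passed the minimum of 10 counts over the libraries and were tested with 13682 genes in all.

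Mice of 2 genotypes, 3 Ahr+/+ and 3 Ahr-/-, gave the splenic B cells compared here, both labelled as on a C57Bl/6J background and used after 8 weeks of age. The study's methods name the knockout strain as B6.129-Ahr tm1Bra/J, a germline allele crossed from 129 and carried in every tissue, so the deletion was not limited to B cells. All cultures ran for 8 h with α-IgM at 10 μg/ml, which engages the antigen receptor, and IL-4 at 20 ng/ml. FICZ, a tryptophan-derived ligand of the aryl hydrocarbon receptor (AhR), was added at 250 nM for the last 4 h. No unstimulated culture and no culture without FICZ was analysed here, so each value is a genotype difference in activated, ligand-exposed cells. The α-IgM was a Fab fragment by the study's methods, so it lacks the Fc part that FcγRIIb binds.

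The libraries held between 22095096 and 53648787 counts, and 3 counts, taken as the floor, corresponded to between 0.0559 and 0.136 CPM (counts scaled to library size). These bounds cover counting error only. Ahr itself had 13175 ± 682 normalised counts in Ahr+/+ mice against 9174 ± 472 without the receptor (SD, n = 3 mice), and counts summed over all exons cannot tell whether any read came from the deleted part. Cyp1a1, the classical AhR target, had 4973, 5437 and 5327 normalised counts in the Ahr+/+ libraries. It had 6.87, 2.84 and 6.38 in the Ahr-/- libraries, which separates the genotypes as labelled. All 10 B-lineage markers, Cd79a, Cd79b and Ms4a1 among them, were detected, and their summed level ran from 92626 to 97237 normalised counts in Ahr+/+ and from 104317 to 109623 in Ahr-/- libraries. They did not move as one, since 5 were higher (Cd79a, Cd79b, Ms4a1, Cd37 and Pax5), 3 lower (Ebf1, −0.24, Bank1, −0.28, and Blnk, −0.19, as log2 fold changes) and 2 did not pass. Over all tested genes, the shares were 9.79% higher and 8.13% lower. In bulk RNA, fewer cells of a type and less RNA per cell cannot be told apart.

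The promoters of the gene that fell most and of the 4 that rose most between genotypes are printed first, because AhR acts by binding DNA and the data concern its absence. Each line gives the 250 bases before the RefSeq transcription start on GRCm38.p6, read 5′ to 3′ along the gene's own strand. Capitals mark GAGGAA or its reverse complement TTCCTC, a core of the kind bound by the haematopoietic factor PU.1.
Ptpn6, chr6:124738710-124738959, minus strand: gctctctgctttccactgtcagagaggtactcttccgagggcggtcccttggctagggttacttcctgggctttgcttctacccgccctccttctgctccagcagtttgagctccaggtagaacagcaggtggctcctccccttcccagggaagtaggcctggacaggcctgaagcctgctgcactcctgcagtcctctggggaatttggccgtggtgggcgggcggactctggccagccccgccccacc
Lair1, chr7:4063205-4063454, minus strand: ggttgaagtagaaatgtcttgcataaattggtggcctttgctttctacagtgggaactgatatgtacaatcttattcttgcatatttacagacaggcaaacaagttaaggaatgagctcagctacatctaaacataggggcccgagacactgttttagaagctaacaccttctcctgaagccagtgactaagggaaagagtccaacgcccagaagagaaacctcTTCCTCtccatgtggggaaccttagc
Cd5, chr19:10738975-10739224, minus strand: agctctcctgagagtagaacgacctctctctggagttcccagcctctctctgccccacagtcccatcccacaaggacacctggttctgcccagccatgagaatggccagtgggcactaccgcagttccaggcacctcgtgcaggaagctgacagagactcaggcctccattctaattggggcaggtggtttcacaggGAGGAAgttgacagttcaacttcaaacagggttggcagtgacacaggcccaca
Pirb, chr7:3720383-3720632, minus strand: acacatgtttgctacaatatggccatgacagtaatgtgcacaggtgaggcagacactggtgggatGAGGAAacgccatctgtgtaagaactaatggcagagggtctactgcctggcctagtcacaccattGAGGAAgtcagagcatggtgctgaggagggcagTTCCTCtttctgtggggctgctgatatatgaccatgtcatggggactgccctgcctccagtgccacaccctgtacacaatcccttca
Cd72, chr4:43454627-43454876, minus strand: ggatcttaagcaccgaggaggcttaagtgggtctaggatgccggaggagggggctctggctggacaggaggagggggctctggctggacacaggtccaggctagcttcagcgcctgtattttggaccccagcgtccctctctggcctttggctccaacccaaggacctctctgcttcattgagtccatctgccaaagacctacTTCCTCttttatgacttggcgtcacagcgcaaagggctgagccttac

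The core of the AhR binding site, GCGTG on either strand, was searched in windows of 300 bases, 250 before and 50 after each RefSeq start. It was in the window of 0 of the 10 genes, Ptpn6 included, and in 35.2% of the 27025 genes with a window. The PU.1-type core GAGGAA, which does not overlap the AhR core in its letters, was in the windows of 7 of the 10 genes and of 31.3% of all genes. Ptpn6, Cd22 and Fcgr2b were the members without it. Lair1 had it at −26, Cd5 at −53 and Cd72 at −47 from the start, and Btla had adjacent copies at −24 and −18. Pirb had it at −185, −120 and −87. These are matches of letters in a short window and describe the sequence only. For Ptpn6 the only window lay at the outer 5′ end of the gene, and any start further inside it was not searched.

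In activated B cells lacking AhR, the phosphatase was lower and most of the receptors that changed were higher. Ptpn6 fell 2.14-fold. Lair1, Cd5, Pirb, Cd72 and Siglecg rose, by 4.88-fold for Lair1 to 1.43-fold for Siglecg, and Btla fell 1.23-fold. Cd22, Fcgr2b and Ceacam1 did not pass the test. By edgeR's quasi-likelihood test at an adjusted p under 0.05, 5 of the 10 genes were thus higher and 2 lower. Over all tested genes 9.79% were higher and 8.13% lower. For 7 of the 10 genes no Ahr-/- value fell within the range of the Ahr+/+ values or the reverse, against 33.5% of all tested genes. The median log2 fold change of the 10 genes was 0.40 (0.00 over all tested genes). Their median absolute log2 fold change was 0.56 (0.11 over all tested genes). Because the genes were chosen with earlier results of these data known, these contrasts with all tested genes are descriptions only. For a single gene, 3 mice against 3 allow no two-sided exact permutation p below 0.1, which each of the 7 genes without overlap reached. The mice are the replicates, so these p-values weigh the genotype difference against the spread between mice. With 1 culture per mouse, that spread includes culture and library preparation.

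**Figure D1:**
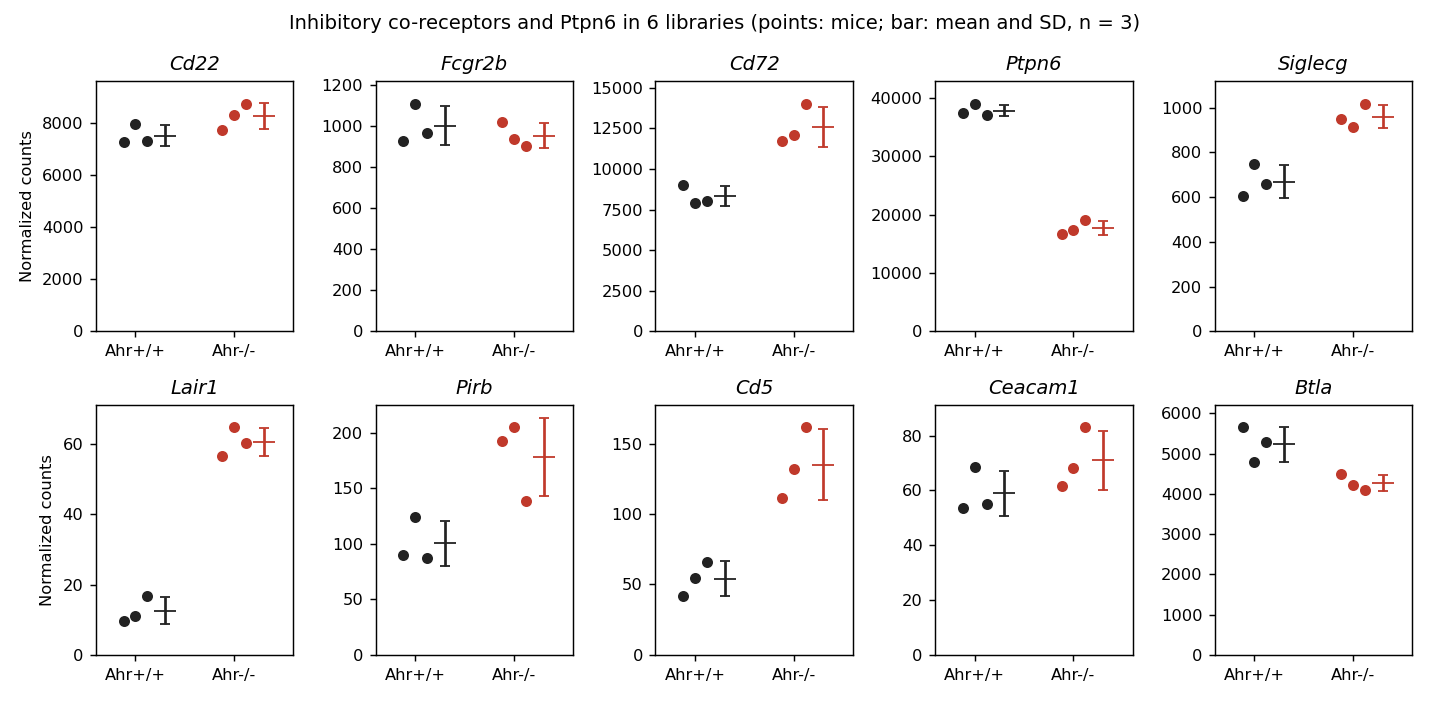
Normalised counts (y axis, from 0) of the 10 genes in each library, 1 panel per gene, with Ahr+/+ mice in black and Ahr-/- mice in red. The bar beside each group is the mean with the SD (n = 3 mice). Ptpn6 lies between 37047 and 38992 in Ahr+/+ and between 16667 and 19015 in Ahr-/- libraries, while Cd22, Fcgr2b and Ceacam1 overlap between genotypes.

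Ptpn6 encodes SHP-1, the tyrosine phosphatase that carries the signal of most of these receptors. The gene lies on chromosome 6 of GRCm38 from 124720707 to 124738714 on the minus strand. Its normalised counts were 37475, 38992 and 37047 across the Ahr+/+ mice and 16667, 17412 and 19015 across the Ahr-/- mice. The highest Ahr-/- library was thus far below the lowest Ahr+/+ library, and the spread within a genotype was small against that gap. The means were 37838 ± 1022 and 17698 ± 1200 (SD, n = 3 mice), a log2 fold change of −1.10 (SE 0.047, 95% interval −1.20 to −0.99, edgeR adjusted p = 5.4e-09). Ptpn6 ranked 48 of the 13682 tested genes by p-value. It is an abundant transcript, with 0.0976% of all counts in the Ahr+/+ libraries, and only 174 tested genes had a higher mean. Of those 174 genes, 0 had a larger absolute log2 fold change. Over the 16 alternatives tried, its log2 fold change ran from −1.26 to −1.05.

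Genes beside Ptpn6 on chromosome 6 moved less. Grcc10 had a log2 fold change of −0.39 (edgeR adjusted p = 6.7e-05) and Phb2, which encodes prohibitin-2, one of −0.16 (adjusted p = 0.0068). Both were lower, by a smaller amount than Ptpn6, although the difference from Ptpn6 was not tested. An antisense gene, Gm20531, overlaps 5873 bases of Ptpn6 and is not a row of the count table. Whether counting used the strand of the stranded libraries is not given in the sources used here, so reads of such opposite-strand partners may be included. Of the 11832 tested genes averaging 10 or more normalised counts, those whose log2 CPM followed Ptpn6 most closely over the 6 libraries were Junb (Pearson r = 0.999), Pmepa1 (0.999) and Ctsa (0.999). Junb encodes an AP-1 transcription factor, Pmepa1 a membrane adaptor known from TGF-β signalling, and Ctsa the lysosomal protease cathepsin A. Their log2 fold changes were −1.15, −0.92 and −0.71. With 6 libraries in 2 genotype groups, these correlations describe mainly the shared genotype difference.

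Among the sialic acid-binding lectins, Siglecg rose and Cd22 did not pass the test. CD22 and Siglec-G bind sialic acids on the cell's own surface and hold back calcium signalling. Siglecg (chromosome 7, 43408204 to 43418358, plus strand) had 604, 748 and 657 normalised counts across the Ahr+/+ mice and 947, 916 and 1018 across the Ahr-/- mice. All Ahr-/- libraries were higher, with means of 670 ± 72.5 and 960 ± 52.2 (SD, n = 3 mice). This gave a log2 fold change of 0.52 (SE 0.076, 95% interval 0.35 to 0.69, edgeR adjusted p = 3.7e-04). Cd22 (chromosome 7, 30865402 to 30880342, minus strand) had 7241, 7955 and 7308 normalised counts across the Ahr+/+ mice and 7722, 8270 and 8718 across the Ahr-/- mice. Ahr+/+ replicate 2 lay above Ahr-/- replicate 1, so the groups overlapped. The means were 7501 ± 395 and 8236 ± 499 (SD, n = 3 mice), which gave a log2 fold change of 0.14 (SE 0.051, 95% interval 0.03 to 0.25, edgeR adjusted p = 0.089). That interval leaves room for a rise of 0.25 on the log2 scale. Cd22 passed the threshold without Ahr+/+ replicate 2 (0.18, adjusted p = 0.038) or without Ahr-/- replicate 1 (0.18, adjusted p = 0.028). Its sign turned, to −0.03, when libraries were scaled to B-lineage genes.

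Cd72 rose, and per length it gained more than any other receptor of the set. CD72 is a C-type lectin-like receptor of B cells whose ligand is the semaphorin CD100, encoded by Sema4d. Its gene (chromosome 4, 43446462 to 43454628, minus strand) had 9030, 7932 and 8032 normalised counts across the Ahr+/+ mice and 11710, 12079 and 14024 across the Ahr-/- mice. The genotypes were well apart, and Ahr-/- replicate 3 was the highest library. The means were 8332 ± 607 and 12604 ± 1243 (SD, n = 3 mice), a log2 fold change of 0.60 (SE 0.067, 95% interval 0.45 to 0.74, edgeR adjusted p = 4.1e-05). Cd72 overlaps Tesk1 by 1603 bases on the opposite strand. Tesk1 itself had 4956 ± 165 and 4968 ± 268 normalised counts (SD, n = 3 mice) and a log2 fold change of 0.00 (edgeR adjusted p = 0.96).

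Sema4d, the ligand gene, moved the other way. It had 5830, 5409 and 5675 normalised counts across the Ahr+/+ mice and 3556, 3746 and 4087.5 across the Ahr-/- mice. Every Ahr-/- library was lower. The log2 fold change was −0.57 (SE 0.052, edgeR adjusted p = 7.1e-06). Ligand and receptor were thus measured in the same B-cell cultures with opposite signs.

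Btla fell slightly. BTLA, an immunoglobulin-family receptor of B and T cells, binds the TNF-receptor family member HVEM. The gene (chromosome 16, 45224315 to 45257670, plus strand) had 5652, 4785 and 5285 normalised counts across the Ahr+/+ mice and 4490, 4233 and 4097 across the Ahr-/- mice. The gap between the groups was narrow, but they did not overlap. The means were 5241 ± 435 and 4273 ± 200 (SD, n = 3 mice), with a log2 fold change of −0.30 (SE 0.058, 95% interval −0.42 to −0.17, edgeR adjusted p = 0.0031). Tnfrsf14, which encodes HVEM, had 540 ± 53.1 and 530 ± 31.5 normalised counts (SD, n = 3 mice), a log2 fold change of −0.02 with a 95% interval of −0.19 to 0.16.

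Fcgr2b, the inhibitory Fc receptor for IgG, did not pass the test. The gene (chromosome 1, 170958617 to 170976547, minus strand) had 928, 1107 and 962 normalised counts across the Ahr+/+ mice and 1019, 934 and 903 across the Ahr-/- mice. The groups overlapped, with means of 999 ± 94.97 and 952 ± 60.4 (SD, n = 3 mice). This gave a log2 fold change of −0.08 (SE 0.071, 95% interval −0.23 to 0.08, edgeR adjusted p = 0.52), and its sign turned to 0.0031 without Ahr+/+ replicate 2. With libraries scaled to B-lineage genes it was −0.24 and passed the threshold (adjusted p = 0.014). Fcgr3, an activating Fc receptor gene of myeloid and NK cells, was lower. It had 47.6, 40.2 and 40.4 normalised counts in the Ahr+/+ and 12.01, 14.9 and 8.21 in the Ahr-/- libraries, a log2 fold change of −1.84 (SE 0.27, edgeR adjusted p = 4.3e-04). Reads on Fcgr2b per read on Fcgr3 in the same library were 23.6 ± 4.01 in Ahr+/+ and 85.8 ± 23.7 in Ahr-/- B cells (mean ± SD, n = 3 mice), without overlap (two-sided exact permutation test, p = 0.1).

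The largest folds were found for scarcely expressed receptors. LAIR-1 is a collagen receptor of many leukocytes, PIR-B binds MHC class I, and CD5 marks T cells and the B-1 subset. Lair1 (chromosome 7, 4003402 to 4063204, minus strand) had 9.71, 11.1 and 16.8 normalised counts across the Ahr+/+ mice and 56.6, 64.7 and 60.2 across the Ahr-/- mice. These rest on 10, 11 and 15 raw counts in Ahr+/+ and on 33, 91 and 66 in Ahr-/- libraries, all above the floor of 3 counts. The means were 12.5 ± 3.79 and 60.5 ± 4.04 (SD, n = 3 mice), a log2 fold change of 2.29 (SE 0.25, 95% interval 1.75 to 2.83, edgeR adjusted p = 3.1e-05).

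Cd5 (chromosome 19, 10717116 to 10739002, minus strand) had 41.8, 54.3 and 66.3 normalised counts across the Ahr+/+ mice and 112, 132 and 161 across the Ahr-/- mice. Values varied within each genotype, and the groups were apart. The means were 54.1 ± 12.2 and 135 ± 25.0 (SD, n = 3 mice), a log2 fold change of 1.35 (SE 0.19, 95% interval 0.93 to 1.76, edgeR adjusted p = 3.1e-04). Pirb (chromosome 7, 3711409 to 3720391, minus strand) had 90.3, 124 and 87.6 normalised counts across the Ahr+/+ mice and 192, 205 and 139 across the Ahr-/- mice. Ahr-/- replicate 3 lay close to Ahr+/+ replicate 2, and the groups did not overlap. The means were 101 ± 20.1 and 179 ± 35.1 (SD, n = 3 mice), a log2 fold change of 0.82 (SE 0.18, 95% interval 0.43 to 1.21, edgeR adjusted p = 0.0063). Pirb has near-identical activating relatives, so its reads could be shared with Pira2 (9.09 ± 7.15 and 16.3 ± 2.60 normalised counts) and Lilra6 (8.73 ± 3.14 and 21.6 ± 8.52, SD, n = 3 mice). Lilra6 passed the test (log2 fold change 1.28, edgeR adjusted p = 0.048) and Pira2 did not (0.78, adjusted p = 0.29). The values of Lilra6 overlapped between genotypes, and it did not pass in 8 of the 16 alternatives, among them leaving out any 1 library other than Ahr-/- replicate 3.

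Ceacam1, a homophilic adhesion receptor, completed the set. The gene (chromosome 7, 25461707 to 25477603, minus strand) had 53.4, 68.4 and 55.0 normalised counts across the Ahr+/+ mice and 61.8, 68.2 and 83.0 across the Ahr-/- mice. The groups overlapped, and the log2 fold change was 0.28 (SE 0.18, 95% interval −0.11 to 0.68, edgeR adjusted p = 0.34). That interval covers both no change and a rise of 0.68 on the log2 scale. The whole gene, 15897 bases, overlaps the antisense gene 4732471J01Rik, which had 32.8 ± 3.58 and 27.4 ± 4.53 normalised counts (SD, n = 3 mice).

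**Figure D2:**
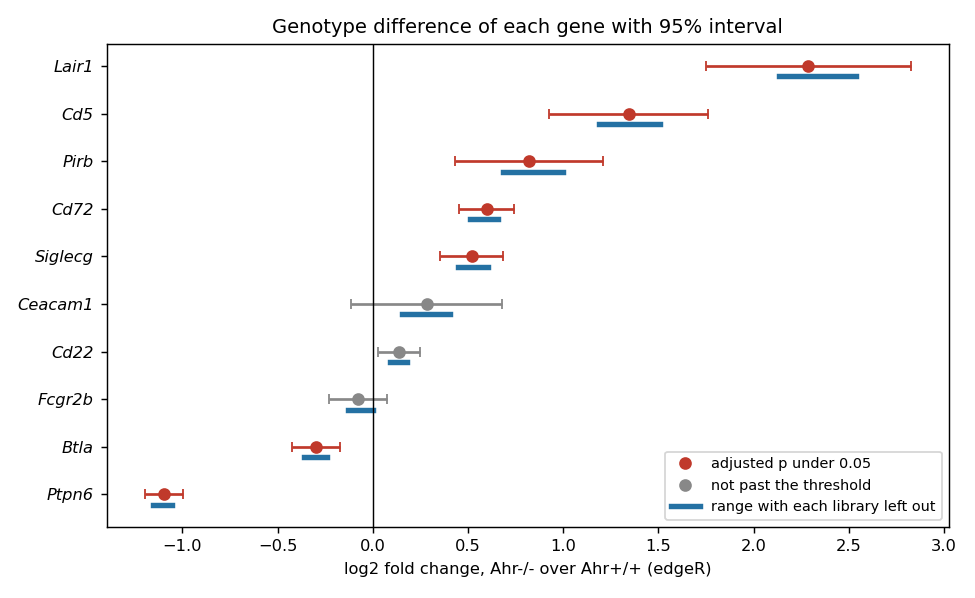
Log2 fold change of Ahr-/- over Ahr+/+ B cells (x axis) for each of the 10 genes, by edgeR. Points are estimates with 95% intervals (red past the threshold, grey not), and blue bars are the range with each library left out in turn. Lair1 lies at 2.29 and Ptpn6 at −1.10, and the interval of Cd22 from 0.03 to 0.25 is the narrowest among the genes that did not pass.

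Several of the rising receptors are also expressed by other leukocytes, so markers of such cells were read in the same libraries. Beside the marker counts here and in the next paragraph, 9.79% of all tested genes were higher and 8.13% lower. Of 8 plasmacytoid dendritic cell markers 7 were higher and 0 lower, with a summed level of 3583 to 4135 normalised counts in Ahr+/+ and 4730 to 5792 in Ahr-/- libraries. Most of that sum was Bst2, with means of 2127 and 2498 and overlapping values, and Pacsin1, with means of 1248 and 1685. The defining marker Siglech had a mean of 56.8 in Ahr+/+ and 270 in Ahr-/- libraries. Of 8 conventional dendritic cell markers 4 were higher and 1 lower, with sums of 820 to 937 and 882 to 1073 and a median log2 fold change of 0.90. Zbtb46, the lower gene, held most of the Ahr+/+ sum (552 and 418), while Itgax was at 148 and 302, Clec9a at 5.87 and 20.7, Clec10a at 7.53 and 26.6 and Cd209a at 6.50 and 36.5 normalised counts. For 11 monocyte and macrophage markers 1 was higher (Cd14) and 1 lower (Emr1, log2 fold change −3.60), and the sums were 1272 to 1688 and 758 to 1333. Emr1 alone went from a mean of 650 to 54.1 and carried the lower sum, while the median log2 fold change of this list was 0.60. No gene of these lists was at 0 in all libraries.

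No T cell marker passed the test as higher. Of the 9 counted, 0 were higher and 2 lower, Cd3e at 33.9 and 14.1 normalised counts and Cd28 at 78.5 and 43.5, and the summed level ran from 6075 to 6514 in Ahr+/+ and from 6070 to 6981 in Ahr-/- libraries. Most of that sum was Lck, at 5968 and 6258. Of 6 B-1 markers 0 were higher and 3 lower, with sums of 6040 to 6517 and 5267 to 5774. Of 6 NK cell markers 2 were higher, with sums of 301 to 420 and 368 to 601. Neutrophil markers gave 0 calls of 7, with sums of 127 to 210 and 96.6 to 349. The part of dendritic, NK and myeloid cells in the values of Lair1, Pirb and Cd5 was not tested. Of 6 marginal zone markers 2 were higher (S1pr3, 0.42, and Cr2, 0.25, as log2 fold changes) and 2 lower (Dtx1, −1.75, and Cd9, −1.17). Their sums were 36503 to 39921 and 32355 to 35141. Of 5 plasma cell markers 2 were higher (Irf4, 0.28, and Xbp1, 0.25) and 2 lower (Igj, −0.92, and Prdm1, −0.64). Their sums were 32685 to 36364 and 34937 to 35953.

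Between genes, levels were compared as CPM per kilobase of annotated exon. The length was the union of all annotated exons of a gene, not that of the transcripts expressed. Ranks and shares between genes depend on this length. Ptpn6 was the highest in both genotypes, at 351 ± 9.49 in Ahr+/+ and 164 ± 11.1 in Ahr-/- B cells (mean ± SD, n = 3 mice). Cd72 came next at 63.3 ± 4.62 and 95.8 ± 9.45. In Ahr+/+ B cells Btla (40.1 ± 3.33) and Cd22 (38.7 ± 2.04) followed and did not differ beyond their spread. In Ahr-/- B cells they were apart, with Cd22 at 42.5 ± 2.58 above Btla at 32.7 ± 1.53. Per length, Fcgr2b and Siglecg exchanged places and were apart in both genotypes. They were at 4.49 ± 0.427 and 3.62 ± 0.393 in Ahr+/+ and at 4.28 ± 0.272 and 5.20 ± 0.282 in Ahr-/- B cells. In normalised counts the 2 genes overlapped in Ahr-/- libraries, with means of 952 and 960. The remaining receptors were near or below 1 in both genotypes. Pirb was at 0.585 and 1.04, Cd5 at 0.286 and 0.713, Ceacam1 at 0.264 and 0.318, and Lair1 at 0.0437 and 0.211. Lair1 thus stayed lowest of the set after its rise.

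Summed over the 9 receptors, the level was 158, 148 and 148 CPM per kilobase across the Ahr+/+ mice and 175, 179 and 195 across the Ahr-/- mice. Cd72 made up 41.8% of this sum in Ahr+/+ and 52.4% in Ahr-/- B cells. The share of Btla was 26.5% and 17.9%, and that of Cd22 25.6% and 23.2%. The 3 together held most of the receptor transcripts in both genotypes, while Lair1 held 0.0288% and 0.115%.

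**Figure D3:**
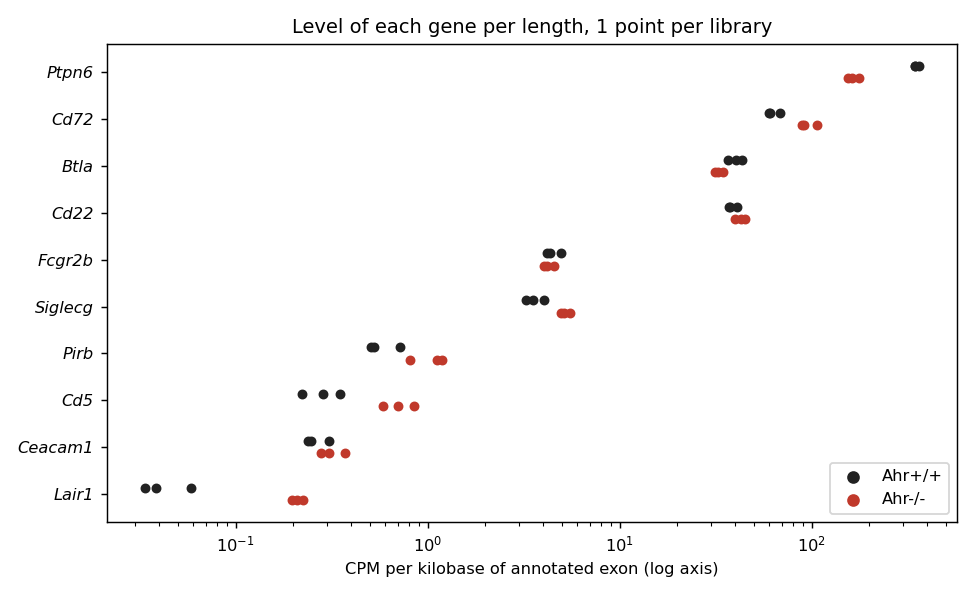
Level of each gene in CPM per kilobase of annotated exon (x axis, log scale), 1 point per library, with Ahr+/+ in black and Ahr-/- in red. Ptpn6 lies above all receptors in both genotypes, and Btla and Cd22 overlap in Ahr+/+ but not in Ahr-/- libraries.

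Ratios within a library need no scaling between libraries, and they put receptor and phosphatase on 1 footing. Reads on Cd22 per read on Ptpn6 were 0.193, 0.204 and 0.197 across the Ahr+/+ mice and 0.463, 0.475 and 0.458 across the Ahr-/- mice. This ratio was 2.35-fold higher in Ahr-/- B cells and varied little between mice. For Cd72 it was 0.241, 0.203 and 0.217 in Ahr+/+ and 0.703, 0.694 and 0.738 in Ahr-/- libraries, 3.23-fold higher. Even Btla, itself lower, gained on Ptpn6, from 0.139 ± 0.0145 to 0.243 ± 0.0270 (SD, n = 3 mice), 1.75-fold. The ratio of Cd72 to Cd22 was 1.11 ± 0.126 and 1.53 ± 0.0747, 1.37-fold higher in Ahr-/- B cells. None of these ratios overlapped between genotypes (two-sided exact permutation test, p = 0.1 each). They are ratios of counts, not of molecules, and all those per Ptpn6 share the fall of Ptpn6.

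Ptpn11 and Inpp5d, the other phosphatase genes that these receptors use, and the kinase gene Lyn did not pass the test as lower. SHP-2, encoded by Ptpn11, is the nearest relative of SHP-1. Ptpn11 had 7522, 7688 and 7712 normalised counts across the Ahr+/+ mice and 7205, 7466 and 7333 across the Ahr-/- mice. The groups were apart by a small gap, and the log2 fold change was −0.06 (SE 0.035, 95% interval −0.13 to 0.02, edgeR adjusted p = 0.30). Inpp5d (SHIP-1) had 9493, 10227 and 9619 in Ahr+/+ and 10826, 11218 and 11691 in Ahr-/- libraries. It rose by 0.20 on the log2 scale (SE 0.042, edgeR adjusted p = 0.0047), and by 0.03 with libraries scaled to B-lineage genes, where it did not pass. Lyn had 4716, 4829 and 4638 in Ahr+/+ and 5945, 6005 and 5716 in Ahr-/- libraries, a log2 fold change of 0.32 (SE 0.038, edgeR adjusted p = 7.5e-05). Per read on Ptpn6, Ptpn11 went from 0.202 ± 0.00562 to 0.416 ± 0.0260 and Inpp5d from 0.258 ± 0.00461 to 0.636 ± 0.0187 (SD, n = 3 mice). Lyn reached 0.334 ± 0.0296 in Ahr-/- B cells, 2.67-fold its Ahr+/+ ratio, and none of the 3 ratios overlapped between genotypes.

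**Figure D4:**
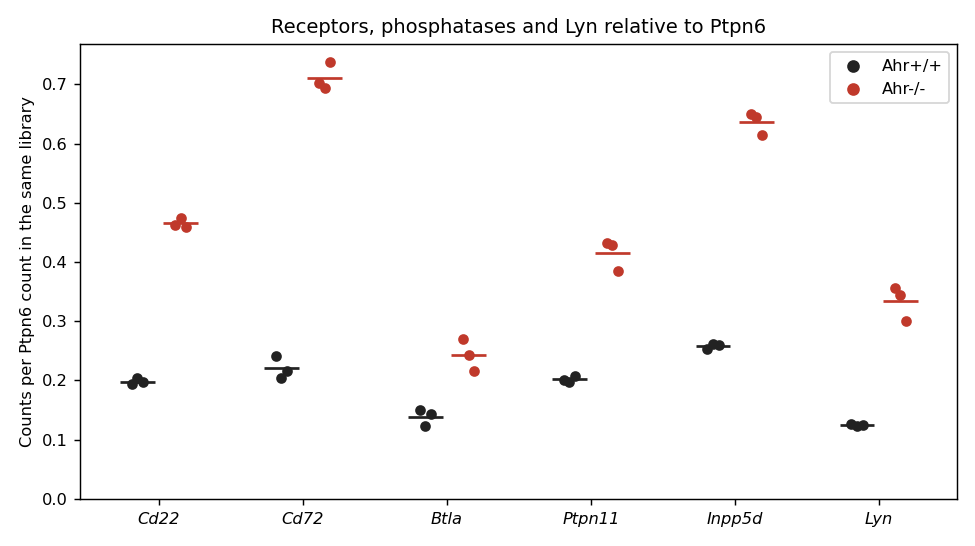
Counts of each gene per count of Ptpn6 in the same library (y axis, from 0), with Ahr+/+ libraries in black, Ahr-/- libraries in red and lines at the group means (n = 3 mice). All 6 ratios are higher in every Ahr-/- library, from 1.75-fold for Btla to 3.23-fold for Cd72.

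The wider set of proximal inhibitory effectors held kinases, phosphatases and adaptors that act next to the antigen receptor. Of its 19 genes 8 were higher, 2 lower and 9 did not pass, with a median log2 fold change of 0.16. For this list and those below, the shares over all tested genes were 9.79% higher and 8.13% lower. Sla, a SLAP adaptor that promotes loss of receptor complexes, rose most, from 545 ± 53.4 to 1121 ± 135 normalised counts (SD, n = 3 mice). Inppl1, which encodes SHIP-2, had 489 ± 18.1 and 803 ± 30.7, a log2 fold change of 0.72 (edgeR adjusted p = 3.0e-06). Dok3, an adaptor that works with SHIP-1, had a log2 fold change of 0.43 and the ubiquitin ligase gene Cblb one of 0.30. Lax1, a membrane adaptor that dampens lymphocyte signalling, went the other way, from 5936 ± 85.1 to 3774 ± 168 (log2 fold change −0.65, edgeR adjusted p = 2.9e-07). The phosphatase gene Ptpn22 was also lower (−0.27), though it missed the threshold without Ahr-/- replicate 2 (−0.25, edgeR adjusted p = 0.0501). Cblb did not pass with B-lineage scaling (0.13). Dok1, the smallest of the rises (0.16), did not pass in 7 of the 16 alternatives and turned to −0.0065 with B-lineage scaling. Csk, the kinase that restrains Lyn, had a log2 fold change of −0.01 and did not pass.

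Other inhibitory receptors of leukocytes changed in both directions. Of 20 tested 5 were higher, 3 lower and 12 did not pass, with a median log2 fold change of 0.15. Cd300lf, a lipid-binding receptor of myeloid cells, had 202, 211 and 194 normalised counts across the Ahr+/+ mice and 626, 571 and 685 across the Ahr-/- mice. Its log2 fold change was 1.63 (SE 0.087, edgeR adjusted p = 5.7e-08). Fcrl5, a B-cell Fc receptor-like gene, had 452 ± 97.8 and 705 ± 34.4 normalised counts (SD, n = 3 mice). The myeloid receptor genes Clec12a (18.7 ± 4.59 and 49.6 ± 12.4) and Cd33 (5.05 ± 2.91 and 15.4 ± 4.70) were higher at low counts, and Cd33 did not pass in 7 of the 15 alternatives that tested it. Ctla4 was lower (113 ± 27.5 and 42.1 ± 18.5), as was Pecam1 (585 ± 47.2 and 406 ± 37.6). The other calls were smaller, Sirpa higher (0.31) and Lilrb4 lower (−0.20), and they did not pass in 2 and 6 of the 16 alternatives. Pdcd1, which encodes PD-1, had a log2 fold change of 0.11 with a 95% interval of −0.25 to 0.47.

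Ligands and the enzymes that make them moved little beside Sema4d. Of 15 genes 4 were higher and 1 lower, with a median log2 fold change of −0.02. St6gal1, which adds the sialic acid linkage that CD22 recognises, had a log2 fold change of −0.12 and did not pass (edgeR adjusted p = 0.056). Nans and Cmas, enzymes of sialic acid synthesis and activation, rose by 0.16 and 0.15, and both turned sign, to −0.01 and −0.02, with libraries scaled to B-lineage genes. Cd274 (0.26) and Pdcd1lg2 (0.29), which encode the ligands of PD-1, were higher. With B-lineage scaling neither passed (0.09 and 0.12), and Cd274 did not pass without Ahr+/+ replicate 1 (0.20) or without Ahr-/- replicate 2 (0.25) either. Nans did not pass in 5 and Cmas in 12 of the 16 alternatives. The count of ligand genes past the threshold was the least steady of the lists, and without Ahr-/- replicate 2 it was 2, without Ahr+/+ replicate 1 or without Ahr+/+ replicate 3 it was 3.

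Genes of the antigen receptor core and its signalling, on which these receptors act, were split. Of its 12 genes with counts, 5 were higher, 5 lower and 2 did not pass, with a median log2 fold change of 0.08. Syk had 2420 ± 195 and 3359 ± 110 normalised counts (SD, n = 3 mice), a log2 fold change of 0.47 (edgeR adjusted p = 4.6e-05). Cd79b (0.35), Pik3ap1 (0.33) and Cd79a (0.26) were higher too, and Cd79a did not pass with B-lineage scaling (0.09). Cr2, which encodes complement receptor CD21, was the fifth (0.25), but its values overlapped between genotypes and it did not pass in 9 of the 16 alternatives. Plcg2, the phospholipase that opens calcium signalling, was lower (10053 ± 342 and 7731 ± 342, log2 fold change −0.38), as were Vav1 (−0.31), Cd81, Blnk and Btk. Of 6 activating Fc and PIR-A receptor genes tested, Tyrobp (118 ± 18.9 and 217 ± 25.9, log2 fold change 0.89) and, less steadily as given above, Lilra6 were higher and Fcgr3 lower.

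**Figure D5:**
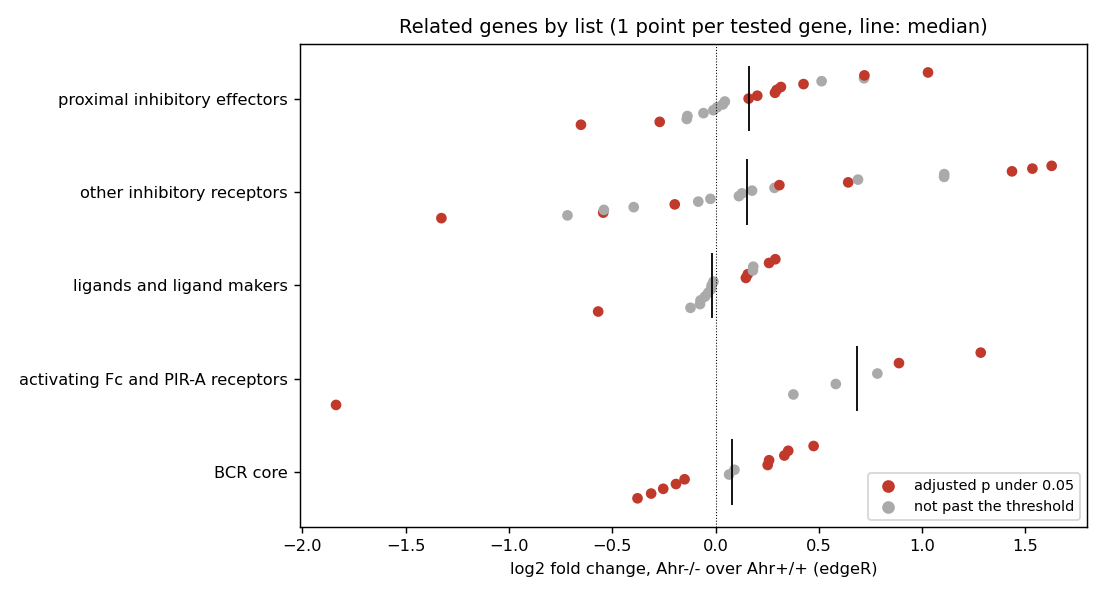
Log2 fold change of Ahr-/- over Ahr+/+ B cells (x axis) of each tested gene in 5 lists of related genes, by edgeR, red past the threshold and grey not, with a black line at each list's median. Sla lies highest among the effectors at 1.03 and Fcgr3 lowest overall at −1.84.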

How the data were processed

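Polyadenylated RNA from 6 cultures, 1 per mouse, was sequenced from stranded libraries. Raw counts of reads on each gene, as deposited by the authors, were used for every test, and the submitters' processing notes name TopHat2 (version 2), HTSeq, DESeq and build mm10. The authors also deposited a normalized signal, equal to these counts divided by 1 factor per library, with 100% of values whole within 0.001 after multiplying back. It added nothing to the counts and was not tested apart. Their table of fold changes and p-values was not used. The annotation and the strand setting of the counting are not given in the sources used here.

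Counts were compared with edgeR 4.0.16 (R 4.3.3; TMM normalization, quasi-likelihood test, genotype as the term, at least 10 counts over 6 libraries, prior count 0.125) and p-values adjusted by Benjamini-Hochberg over all 13682 genes tested. Normalised counts are counts divided by the TMM-scaled library size relative to its mean. Lengths came from GENCODE on GRCm38 and starts from RefSeq GRCm38.p6. Replicates of 1 genotype differed beyond sampling noise (chi-square per degree of freedom 3.80 to 8.80). The members and lists were chosen with earlier results of these data known. Genes named from a list were up to 6 past the threshold with the largest absolute change that averaged 10 or more normalised counts in either genotype, with Ptpn11, Inpp5d and Lyn always. Others named, such as Csk, Ptpn22, Btk, St6gal1, Tnfrsf14 and Pdcd1, were added after their values were seen. The 16 alternatives covered scaling, the low-count filter, DESeq2 1.42.0, a robust fit, a prior count of 2, the replicate block, a threshold of 0.01 and leaving out each library.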

Additional observations from a re-analysis of the deposited data

How the results depend on the processing

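Of 160 log2 fold changes of the 10 genes under 16 alternatives, 154 kept their direction and their side of the threshold, and those of the 7 called genes all did. Cd22 passed with scaling to library size alone (0.16, adjusted p = 0.040 from edgeR) and turned to −0.032 with libraries scaled to B-lineage genes. Fcgr2b turned to 0.0031 without Ahr+/+ replicate 2. With each library left out, 1664 to 2601 genes passed against 2453, and 2 to 7 ligand genes against 5. B-lineage scaling lowered the median of all genes by 0.17 (a shift of −0.17), called 6406 genes, of which 10.7% were higher (library size alone: 63.8% higher), and called 8 ligand genes. At an adjusted p under 0.01, 1473 genes, 5 other inhibitory receptors (8 at 0.05) and 2 ligand genes passed. The cause of these differences was not tested, apart from the stricter threshold itself.

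Deviations of same-numbered libraries of the genotypes had correlations of −0.11, 0.19 and −0.13. The labels do not say whether the numbers pair the mice, and correlations over so few libraries cannot decide it. The main test assumed no pairing. With the replicate block 2304 genes passed, 5 members were higher and 2 lower, and Ptpn6 had a log2 fold change of −1.10. Depth limits Lair1, Cd5, Pirb and Ceacam1 most.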
